A study of Mus musculus with 12 samples.

Results

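E2f1, E2f2, E2f3, E2f7, E2f8, Tfdp2, Rb1, Mybl2 and Foxm1 encode transcription regulators that set entry into and passage through the cell cycle. These 9 gene symbols were taken from a fixed list and all 9 were found among the 23337 genes counted at both times. Their transcripts were measured in urothelium peeled from mice that were wild-type (WT) or knockout (KO) for Stag2, a gene for a subunit of the cohesin ring. Every animal, WT and KO, ate food containing the inducer TMX for a week, and tissue was taken 1 week or 1 month after this began. There were 3 libraries in each of the 4 groups (WT and KO at 1 week, WT and KO at 1 month), and the study's title places the comparison in the question of how Stag2 and the DREAM complex keep the urothelium quiescent. The driver of the recombination and the strain, age and sex of the animals are not given in the sources used here. Nothing in the labels says whether the mice shared litters, so the p-values measure the spread between these libraries.

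E2F proteins bind DNA together with a DP partner, of which Tfdp2 encodes one. E2F1, E2F2 and E2F3 activate genes for DNA replication unless the retinoblastoma protein, the product of Rb1, holds them back, and cyclin-dependent kinases release that hold when a cell leaves rest. E2F7 and E2F8 are atypical members that bind without a DP partner and repress the same target genes later in the cycle, so the list joins activators with repressors. In resting cells the DREAM complex, built on the MuvB core with E2F4 and a pocket protein, represses these genes. In cycling cells MuvB joins B-Myb, the product of Mybl2, and then FOXM1 to activate genes of G2 and mitosis. The adult urothelium divides rarely.

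The promoters of several of these genes are themselves read by E2F and by MuvB, so their sequences were examined for the corresponding words. RefSeq start-site windows of 300 bases (250 before the start and 50 from it on, build GRCm38.p6) were at hand for 7 of the 9 genes, 10 windows in all, with none for Foxm1 and Rb1. The word searched for E2F on both strands was TTNNCGN with each N read as C or G, and overlapping matches were each counted. TTTGAA was searched on both strands for the cell cycle genes homology region (CHR), the element bound by MuvB. An E2F word was present in 5 of the 10 windows, against 17.8% of 32851 windows of that length, and a CHR word in 3 of the 10, against 17.9%. The stretches below were chosen to show the matches in the 5 genes that had an E2F word. Capitals mark the E2F and CHR words, and on the opposite strand their reverse complements.
E2f2, chr4:136172295-136172323, plus strand, inside the first 50 bases from the RefSeq start and before the GENCODE M21 start: gaatTTGGCGGcatatagtTTGGCGCtaa
E2f3, chr13:29986064-29986098, minus strand, ending at the base before the start: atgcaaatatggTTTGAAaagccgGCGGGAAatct
E2f7, chr10:110745204-110745259, plus strand: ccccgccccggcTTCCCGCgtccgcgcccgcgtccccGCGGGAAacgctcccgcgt
E2f8, chr7:48881599-48881719, minus strand: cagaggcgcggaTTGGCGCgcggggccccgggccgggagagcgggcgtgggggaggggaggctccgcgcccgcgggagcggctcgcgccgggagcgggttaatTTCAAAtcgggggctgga
Mybl2, chr2:163054608-163054634, plus strand, ending at the base before the start: gcgccgacgcacTTGGCGGgagatagg
E2f3 and E2f8 had an E2F word and a CHR word in the same window, and the other CHR word lay in a second E2f2 window inside the gene. E2f3 had 3 E2F words, of which 1 is shown. E2f7 also had 3 E2F words, 2 of them shown, with no CHR word, and Mybl2 had 1 E2F word. The E2f1 and Tfdp2 windows held neither. The E2f1 window lies 294 bases from the nearest transcript start of the GENCODE M21 annotation, so it may not show the main promoter. A match describes the letters and says nothing of whether a protein was bound.

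Before the genes are described, the libraries need a short account. Total counts ran from 5580961 to 9497088 per library, so that 3 counts, the floor of detection used here, corresponded to between 0.305 and 0.632 CPM (counts scaled to a common library total, with TMM factors throughout). Stag2 was lower in every KO library than in every WT library of its time: 106 to 151 CPM in WT and 59.5 to 72.2 CPM in KO at 1 week, and 45.1 to 64.6 CPM in WT and 19.3 to 39.4 CPM in KO at 1 month. It did not pass the edgeR threshold at either time (adjusted p = 0.198 and 0.0507). All 18 urothelial markers had counts in all 12 libraries, as did all 14 stromal markers, so each library also held RNA of tissue beneath the epithelium. KO replicate 3 of 1 week stood apart: its Spearman correlations with the remaining 1-week libraries, across 12754 genes, were 0.730 to 0.833. At 1 week Xist had at most 13 counts in each WT library and at least 6392 in each KO library, and the 4 Y-linked genes summed to at most 4 counts in KO, so genotype and this sex-linked difference cannot be told apart at that time. At 1 month KO replicate 3 alone lacked counts of the Y-linked genes. The labels give a batch: all libraries of 1 week are batch 1, and at 1 month batch 3 holds replicate 3 of each genotype and batch 2 the others. A batch 3 difference is thus 1 KO library minus 1 WT library, and there too genotype and the sex-linked difference cannot be told apart. In bulk tissue, fewer cells of a type and less RNA per cell cannot be told apart.

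At 1 week most of the cell cycle regulators stood higher in KO tissue, with 0 of the 8 tested genes past the threshold. Every KO library was above every WT library for 6 of the 9 genes: E2f1, E2f3, E2f7, E2f8, Mybl2 and Foxm1. The level of Tfdp2 was below WT in each KO library, while E2f2 and Rb1 overlapped between genotypes. Among the 12754 genes tested at this time, 13.2% lay above and 13.4% below in the same sense. Without KO replicate 3, E2f2 joined the others and 7 of the 9 genes lay above, where 19.4% of all genes did. The edgeR test (quasi-likelihood, Benjamini-Hochberg adjustment over all genes, threshold 0.05) called 8 genes, 0.0627% of those tested, 2 higher and 6 lower (3 and 5 with library size alone in place of TMM), and none of them belonged to the 9. At an unadjusted p of 0.05, 5 of the 8 tested genes were higher and 0 lower, where 10.5% of all genes were higher and 5.03% lower. E2f8 was among the 5 and met the filter on low counts only through its KO libraries. DESeq2 called 4 of the 9 genes, all higher (E2f7, E2f8, Mybl2 and Foxm1), against 6.32% of the 14107 genes to which it gave an adjusted p (4.67% higher). DESeq2 also filters on the mean count, which for E2f7 and E2f8 came mostly from the KO libraries (107 counts against 5, and 536 against 15). Its calls of E2f7 and E2f8 therefore carry no support of their own.

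**Figure D1:**
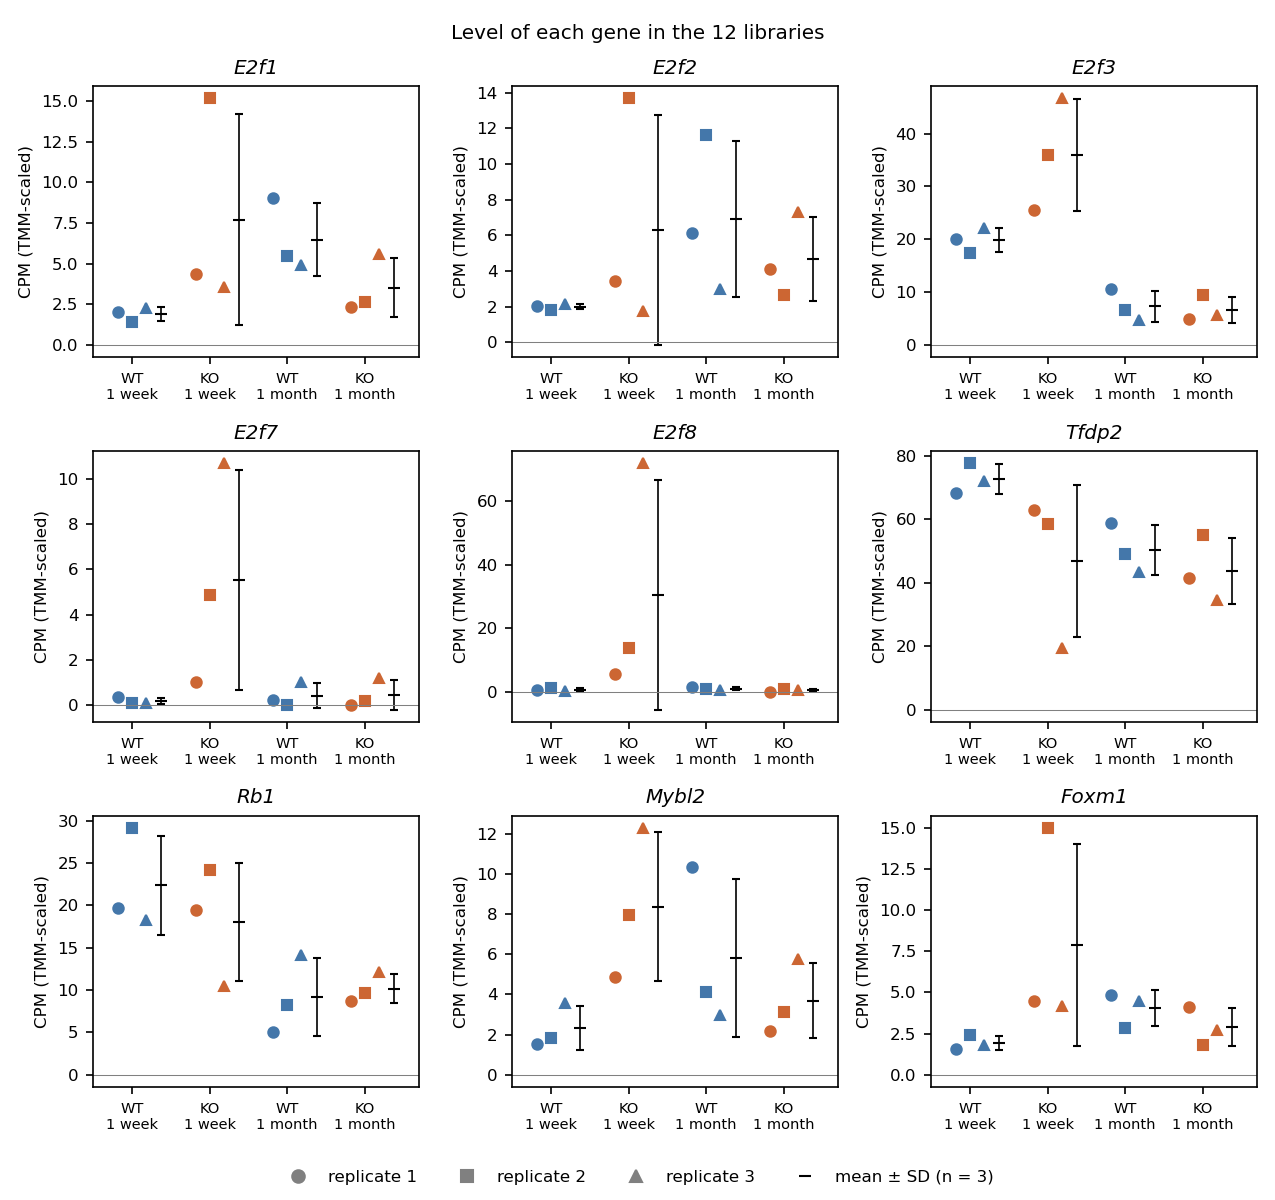
Level of the 9 genes in each of the 12 libraries, in TMM-scaled CPM on linear axes. Points are libraries (circle, square and triangle for replicates 1, 2 and 3; blue WT, orange KO), and the black bar is the mean ± SD of 3 libraries; E2f8 reached 72.0 CPM in KO replicate 3 of 1 week and at most 1.47 CPM in every library outside the KO group of that time.

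E2f1, the founding activator of the family, lies on chromosome 2 (154559407 to 154569892, minus strand; GRCm38, GENCODE M21, as are the positions that follow). At 1 week it had 2.02, 1.38 and 2.23 CPM in WT replicates 1 to 3 and 4.35, 15.2 and 3.56 CPM in KO replicates 1 to 3. KO replicate 2 was far above the others, and the lowest KO library was only slightly above the highest WT library. Those 2 libraries rested on 18 and 22 counts, whose 95% Poisson intervals of 2.11 to 5.63 CPM and 1.40 to 3.38 CPM overlap. In the fit, KO exceeded WT by 2.06 on the log2 scale (SE 0.65, edgeR adjusted p = 0.213), and by 1.07 without KO replicate 2. At 1 month the levels were 9.05, 5.45 and 4.92 CPM in WT and 2.30, 2.63 and 5.61 CPM in KO. Both KO libraries of batch 2 were below all WT libraries, and the KO library of batch 3 was above the WT library of its batch. On the log2 scale KO minus WT was -0.92 (SE 0.45, edgeR adjusted p = 0.259), and the log2 CPM difference was -1.42 in batch 2 and 0.18 in batch 3. In batch 2 alone it passed (-1.51, edgeR adjusted p = 0.0462), and so it did without WT replicate 3 (-1.51, adjusted p = 0.0429) and without KO replicate 3 (-1.51, adjusted p = 0.0457). Those fits take the contrast from batch 2 only. In them 12.2%, 12.3% and 12.3% of all genes were called, and over the 14 alternatives the adjusted p of E2f1 ran from 0.0429 to 0.690. By mean level (± SD, n = 3) the order was KO at 1 week (7.70 ± 6.49 CPM), WT at 1 month (6.47 ± 2.25 CPM), KO at 1 month (3.52 ± 1.82 CPM) and WT at 1 week (1.88 ± 0.447 CPM), and of these neighbours only the last 2 did not overlap.

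E2f2, the activator closest to E2f1 in its expression here, lies on chromosome 4 (136172394 to 136196057, plus strand). Its 1-week levels were 2.02, 1.83 and 2.13 CPM in WT and 3.46, 13.7 and 1.78 CPM in KO. The WT libraries lay close together, KO replicate 2 was the only library far from them, and KO replicate 3 was the lowest of the 6. The log2 fold change was 1.69 (SE 0.75, edgeR adjusted p = 0.336), and without KO replicate 2 it was 0.41. At 1 month it had 6.11, 11.6 and 2.98 CPM in WT and 4.09, 2.63 and 7.28 CPM in KO. The genotypes overlapped, and the log2 CPM difference had opposite signs in the batches, -1.29 in batch 2 and 1.21 in batch 3 (log2 fold change -0.52, SE 0.54, edgeR adjusted p = 0.600). From high to low the groups stood as WT at 1 month, KO at 1 week, KO at 1 month and WT at 1 week, again with an overlap between all neighbours but the last.

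E2f3 encodes the activator with the most counts of the 3 and lies on chromosome 13 (29906575 to 29986063, minus strand). At 1 week it had 20.1, 17.4 and 22.0 CPM in WT and 25.5, 35.9 and 46.7 CPM in KO. The KO libraries were all higher, but KO replicate 1 was close to the highest WT library. The fitted log2 fold change was 0.88 (SE 0.32, edgeR adjusted p = 0.257). At 1 month E2f3 had 10.5, 6.57 and 4.62 CPM in WT and 4.86, 9.38 and 5.61 CPM in KO, and the genotypes overlapped (log2 fold change -0.08, SE 0.38, edgeR adjusted p = 0.921). Both groups of 1 month lay below both groups of 1 week, with no overlap, and the KO and WT groups of 1 week did not overlap either.

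The atypical repressors had the largest ratios of KO to WT among the 9 genes at 1 week. E2f8, on chromosome 7 (48866429 to 48881596, minus strand), had 0.594, 1.03 and 0.102 CPM in WT and 5.63, 13.8 and 72.0 CPM in KO. These levels stand for 5, 9 and 1 counts in WT and 44, 128 and 364 counts in KO. Each KO library was well above all WT libraries, and KO replicate 3 was the highest. Its log2 fold change was 5.72 (SE 1.20, edgeR adjusted p = 0.115), the largest of the 8 tested genes, and E2f8 met the filter on low counts only through its KO libraries. Summed over libraries, KO had 43.5 times the CPM of WT, with a counting interval of 26.2 to 78.3 (95%, counting error only). The test passed without KO replicate 3 (log2 fold change 4.06, edgeR adjusted p = 0.0402, where 2.45% of all genes were called) and under DESeq2 (adjusted p = 2.24e-06), and over the 12 alternatives the adjusted p ran up to 0.507. Since E2f8 entered the edgeR fits only through the group where it was high, its edgeR pass carries no support of its own. The mean count on which DESeq2 filters also came mostly from that group, so the same holds for the DESeq2 call of E2f8. At 1 month E2f8 was counted 7, 5 and 3 times in WT libraries against 0, 4 and 3 times in KO libraries, too few for the filter. The 1-month groups overlapped, and each was below every KO library of 1 week.

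E2f7, on chromosome 10 (110745439 to 110787384, plus strand), was counted 3, 1 and 1 times in the WT libraries of 1 week, and 8, 45 and 54 times in the KO libraries. In CPM this was 0.357, 0.115 and 0.102 in WT and 1.02, 4.85 and 10.7 in KO, so that the WT libraries were at or under the floor and the KO libraries above it. Summed over libraries the ratio of KO to WT was 26.1, with a counting interval of 10.8 to 81.9. It did not meet the filter on low counts. With no filter its log2 fold change was 4.71 (SE 0.98, edgeR adjusted p = 0.0751), and DESeq2 gave 4.88 (adjusted p = 6.31e-04). E2f7 also met the filter when WT replicate 1, 2 or 3 or KO replicate 1 was left out (edgeR adjusted p = 0.464, 0.501, 0.507 and 0.0585). With so few WT counts it met the filter there only through the KO libraries, where it was high, so those fits carry no support of their own. The mean count on which DESeq2 filters came mostly from the KO libraries as well, so the same holds for the DESeq2 call of E2f7. At 1 month E2f7 was counted 1, 0 and 7 times in WT and 0, 1 and 8 times in KO. The libraries with more than 1 count were the WT and KO libraries of batch 3.

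Tfdp2, which encodes a DP partner of the E2F proteins, lies on chromosome 9 (96196275 to 96323646, plus strand) and had the most counts of the 9 genes. At 1 week it had 68.5, 77.7 and 72.0 CPM in WT and 63.0, 58.6 and 19.4 CPM in KO. KO replicates 1 and 2 were just below WT and KO replicate 3 was far below. On the log2 scale KO minus WT came to -0.60 (SE 0.44, edgeR adjusted p = 0.535), and without KO replicate 3 it was -0.28. At 1 month Tfdp2 had 59.0, 49.0 and 43.4 CPM in WT and 41.6, 55.1 and 34.7 CPM in KO, with overlap (log2 fold change -0.20, SE 0.21, edgeR adjusted p = 0.610). Its means ran from 72.7 ± 4.65 CPM (SD, n = 3) in WT at 1 week through 50.4 ± 7.89 CPM in WT at 1 month and 47.0 CPM (19.4 to 63.0 CPM) in KO at 1 week to 43.8 ± 10.4 CPM in KO at 1 month, and of these neighbours only the first pair did not overlap.

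Rb1, the retinoblastoma gene on chromosome 14 (73183673 to 73325822, minus strand), showed no separation of the genotypes. At 1 week it had 19.7, 29.1 and 18.3 CPM in WT and 19.5, 24.2 and 10.5 CPM in KO. Only KO replicate 3 lay below the WT range. Fitted, the log2 fold change was -0.28 (SE 0.40, edgeR adjusted p = 0.748). At 1 month Rb1 had 5.05, 8.26 and 14.2 CPM in WT and 8.70, 9.71 and 12.1 CPM in KO, and the batch 3 library was the highest of each genotype (log2 fold change 0.22, SE 0.33, edgeR adjusted p = 0.725). At 1 week the WT mean was 22.4 ± 5.88 CPM (SD, n = 3) and the KO mean 18.1 ± 6.98 CPM, above 10.2 ± 1.77 CPM in KO and 9.16 ± 4.62 CPM in WT at 1 month, with an overlap at each step. Each SE was larger than the difference itself, and these values do not show that Rb1 was alike in WT and KO.

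Mybl2, the gene of B-Myb on chromosome 2 (163054687 to 163084688, plus strand), had 1.55, 1.83 and 3.55 CPM in WT and 4.87, 7.97 and 12.3 CPM in KO at 1 week. All KO libraries were higher than all WT libraries, and the KO libraries differed from each other by more than the WT libraries did. The log2 fold change was 1.86 (SE 0.54, edgeR adjusted p = 0.181), and DESeq2 gave an adjusted p of 0.0336 in a range of 0.0336 to 0.582 over the 12 alternatives. At 1 month Mybl2 had 10.3, 4.13 and 2.98 CPM in WT and 2.17, 3.13 and 5.77 CPM in KO. WT replicate 1 was the highest library, and the log2 CPM difference was -1.24 in batch 2 and 0.89 in batch 3 (log2 fold change -0.63, SE 0.55, edgeR adjusted p = 0.523). Mean levels stood in the order of KO at 1 week (8.37 ± 3.72 CPM), WT at 1 month (5.81 ± 3.95 CPM), KO at 1 month (3.69 ± 1.86 CPM) and WT at 1 week (2.31 ± 1.09 CPM), and all neighbours overlapped.

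Foxm1, which encodes the factor that acts with MuvB late in G2, lies on chromosome 6 (128362967 to 128376146, plus strand). At 1 week it had 1.55, 2.41 and 1.83 CPM in WT and 4.48, 15.0 and 4.15 CPM in KO. KO replicate 2 stood out as it did for E2f1 and E2f2, and the other 2 KO libraries were above WT by a smaller margin. The log2 fold change was 2.05 (SE 0.62, edgeR adjusted p = 0.195), and DESeq2 gave an adjusted p of 0.0399 in a range of 0.0399 to 0.572 over the 12 alternatives. Without KO replicate 2 the edgeR log2 fold change of Foxm1 was 1.16. At 1 month Foxm1 had 4.84, 2.82 and 4.47 CPM in WT and 4.09, 1.81 and 2.73 CPM in KO. The groups overlapped, with a log2 CPM difference of -0.40 in batch 2 and -0.66 in batch 3 (log2 fold change -0.46, SE 0.47, edgeR adjusted p = 0.587). The order of the groups was that of Mybl2, from 7.87 ± 6.15 CPM in KO at 1 week to 1.93 ± 0.439 CPM in WT at 1 week, again with an overlap between neighbours. Annotated genes on the same strand overlap Foxm1 (Tex52 and Gm44596), Rb1 (Gm17233 and Mir687), Tfdp2 (Gm37195) and Mybl2 (Mir7003), so some reads of these genes may not have been assigned.

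**Figure D2:**
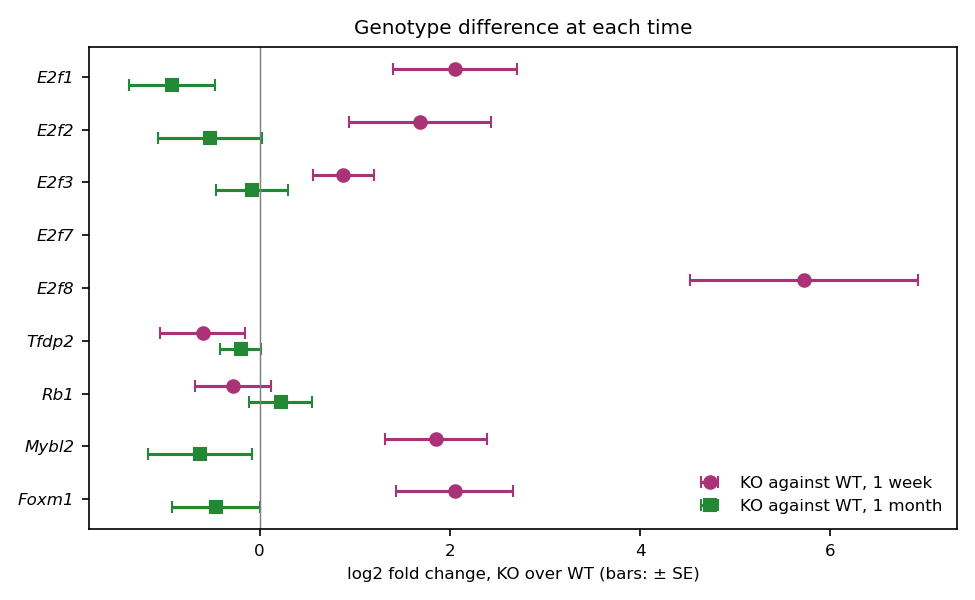
Log2 fold change of KO over WT from the edgeR fits of 1 week (circles) and 1 month (squares), with bars of ± 1 SE. E2f7 was tested at neither time and E2f8 at 1 week only; 6 genes lie to the right of 0 at 1 week, and 6 of the 7 tested at 1 month lie to the left of it, of which E2f3 and Tfdp2 lie to the right when library size alone is used for scaling.

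At 1 month the same genes showed no separation between the genotypes. For 0 of the 9 genes was every KO library above, or every KO library below, all WT libraries, where 6.42% and 6.71% of the 12139 genes tested were. The edgeR fit with batch as a covariate called 0 of the 7 tested members, with 0 at an unadjusted p of 0.05 (21.5% of all genes), and DESeq2 called 0 (6.21% of all genes). The edgeR fit called 2.22% of all genes (269), 121 of them higher and 148 lower. With library size alone in place of TMM it called 561 genes, 456 higher and 105 lower, and the median of all genes moved from -0.01 to 0.22 on the log2 scale. Under that scaling E2f3 (0.17) and Tfdp2 (0.034) were above 0 but below that median.

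A fit of all 12 libraries tested the change of the KO effect from 1 week to 1 month. Of the 8 genes tested, 0 passed the edgeR threshold, and 0.0% of the 13122 genes did. Unadjusted, 4 of the 8 had a p under 0.05, each with a lower effect at 1 month, against 19.9% of all genes in either direction. For E2f8 the effect of 1 month minus that of 1 week was -7.02 on the log2 scale (SE 1.70, edgeR adjusted p = 0.109). For E2f1 the difference was -3.00 (SE 0.87, adjusted p = 0.129), for Foxm1 -2.51 (SE 0.81, adjusted p = 0.157) and for Mybl2 -2.49 (SE 0.88, adjusted p = 0.173). DESeq2 called E2f1, E2f8 and Foxm1 (adjusted p = 0.0194, 3.89e-04 and 0.0486), against 6.18% of all genes. In edgeR E2f8 passed when any 1 of the KO libraries of 1 week was left out (adjusted p = 0.0367, 0.0472 and 0.0465 without replicates 1, 2 and 3), and E2f1 without replicate 3 (0.0444). Those 3 fits called 1.61%, 3.29% and 2.32% of all genes. E2f8 entered the edgeR fits only through the KO libraries of 1 week, where it was high, so its edgeR passes carry no support of their own. DESeq2 was run without that filter but applies its own on the mean count, which for E2f8 came mostly from the same KO libraries. Its call of E2f8 thus carries no support of its own either. Without KO replicate 2 of 1 week the differences were -2.0 for E2f1 and -1.61 for Foxm1. Over the 19 alternatives the adjusted p ran from 3.89e-04 to 0.304 for E2f8 and from 0.0194 to 0.327 for E2f1. For Rb1 the difference was 0.52 (SE 0.52, edgeR adjusted p = 0.587) and for Tfdp2 0.41 (SE 0.52, adjusted p = 0.669).

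The 3 KO libraries of 1 week did not carry these transcripts in the same proportion. Relative to the WT mean of log2 CPM, replicate 2 was the highest KO library for E2f1 (2.87), E2f2 (2.62) and Foxm1 (2.81). Replicate 3 was the highest for E2f8 (6.58), E2f7 (4.59), Mybl2 (2.35) and E2f3 (1.23). In that library E2f1 was 0.86 and Foxm1 1.03 above the WT mean, E2f2 was at -0.14, and Tfdp2 (-1.89) and Rb1 (-1.04) had their lowest values of 1 week. Replicate 1 was above the WT mean for the 7 genes other than Rb1 and Tfdp2, by 0.36 for E2f3 up to 2.97 for E2f8. The activators E2f1 and E2f2 thus peaked in replicate 2, while the activator E2f3 peaked in replicate 3 with the repressors E2f7 and E2f8. Replicate 3 is the library that stood apart over all genes.

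**Figure D3:**
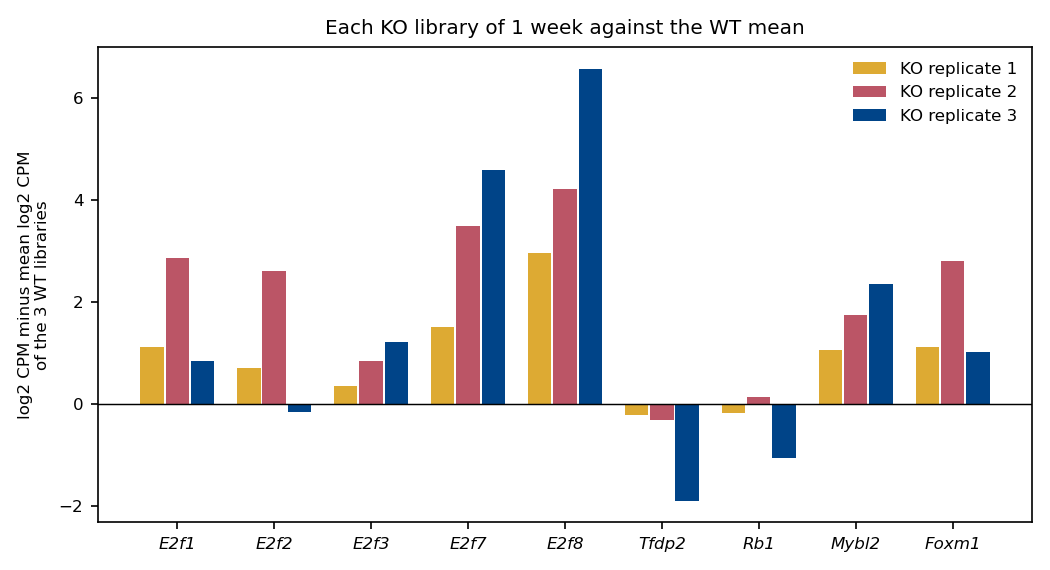
Bars show the log2 CPM of each KO library of 1 week minus the mean log2 CPM of the 3 WT libraries, for the 9 genes. Replicate 2 is highest for E2f1 (2.87), E2f2 (2.62) and Foxm1 (2.81), and replicate 3 is highest for E2f8 (6.58) and lowest for Tfdp2 (-1.89).

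Likeness of profiles was measured as the root mean square difference of log2 CPM over the 12 libraries, each gene centred on its own mean. Among the members other than E2f7, which did not meet the filter, the closest pairs were E2f1 with Foxm1 (0.55), E2f1 with E2f2 (0.55), E2f1 with Mybl2 (0.64) and Rb1 with Tfdp2 (0.67). Of the 13114 other genes searched, the nearest to Foxm1 were Cdkn2c (0.41), an inhibitor of the kinases CDK4 and CDK6, Brip1 (0.42), a helicase of DNA repair, and Cdca3 (0.44), which promotes mitotic entry. The median distance of all genes from Foxm1 was 1.04. E2f8 had Adamdec1 (0.70), Ccnb1 (0.81), the mitotic cyclin B1, and Kif4 (0.84), a chromosome-bound kinesin, as its nearest genes, with a median distance of 2.30. For E2f3 they were Ckap5 (0.20), a spindle microtubule protein, Hspa4l (0.23) and Nedd4 (0.29). E2f1 was nearest to Nt5dc2 (0.44), Ptger1 (0.45) and Sod3 (0.47), E2f2 to Tagln2 (0.41), and Mybl2 to Fzr1 (0.40), an activator of the anaphase-promoting complex. All distances were taken over the same 12 libraries, which differ in depth and batch, and carry no test.

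Genes that E2F proteins activate for DNA replication were summed over all 35 of a list of G1/S targets. At 1 week the sum was 478 to 534 CPM in WT, and 663, 1284 and 2216 CPM in KO replicates 1, 2 and 3. Replicate 3 therefore had the highest sum of these targets together with the highest E2f3 and the lowest E2f1 and E2f2 of the KO libraries. E2f3 rose from replicate 1 to replicate 3 as the sum did (25.5, 35.9 and 46.7 CPM). The E2f1 and E2f2 values of replicate 3 rested on 18 and 9 counts, and their 95% Poisson intervals overlapped those of replicate 1. Of the 33 tested, all 33 were higher and 0 passed edgeR over all genes. At an unadjusted p under 0.05, 21 were higher, where 10.5% of all genes were. Of the 33, 10 would not have met the filter on the WT libraries alone. The median log2 fold change of the 33 was 1.79, beside 0.02 over all genes tested. For 18 of the 35 every KO library was above every WT library, where 13.2% of the genes tested were. DESeq2 called 17 of the 35 higher, where it called 4.67% of all genes higher. In edgeR 3 of 34 were called without KO replicate 1 (0.429% of all genes) and 3 of 34 without KO replicate 3 (2.45% of all genes). The count was 0 when any other library was left out. How many targets met the filter only through KO libraries in those fits was not counted. Brca1, a DNA repair gene, had 1.78, 2.18 and 1.62 CPM in WT and 7.17, 12.4 and 18.8 CPM in KO (log2 fold change 2.79, SE 0.48, edgeR adjusted p = 0.0927). Mcm3, a subunit of the replicative helicase, had a log2 fold change of 2.47 (SE 0.48) that did not pass either (edgeR adjusted p = 0.109).

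Targets of B-Myb and FOXM1 in G2 and mitosis formed the second list, of 44 genes. Their sum at 1 week was 106 to 133 CPM in WT, and 331, 1866 and 1050 CPM in KO replicates 1, 2 and 3, so here replicate 2 was the highest, as for Foxm1. Mybl2, the gene of B-Myb, was instead highest in replicate 3 (12.3 CPM, against 7.97 CPM in replicate 2). Of the 34 tested, 32 were higher, 2 lower and 0 passed edgeR. At an unadjusted p under 0.05, 28 were higher, where 10.5% of all genes were. Of the 34, 17 would not have met the filter on the WT libraries alone. The median log2 fold change of the 34 was 3.76. For 31 of the 44 every KO library was above every WT library, and for 1 every KO library was below, where 13.2% and 13.4% of the genes tested were. DESeq2 called 31 of the 44 higher, where it called 4.67% of all genes higher. In edgeR 21 of 37 were called without KO replicate 3 (2.45% of all genes) and 12 of 40 without KO replicate 1 (0.429% of all genes). The count was 0 when any other library was left out, with a median of 2.74 without KO replicate 2. How many of these targets met the filter only through KO libraries in those fits was not counted. Cenpe, a kinetochore motor, had 2.38, 1.60 and 1.52 CPM in WT and 13.4, 82.3 and 63.9 CPM in KO (log2 fold change 4.86, SE 0.72, edgeR adjusted p = 0.0927). Tpx2, Top2a and Mki67 had log2 fold changes of 4.10, 4.28 and 5.66, none past the threshold (adjusted p = 0.0844 for Mki67).

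**Figure D4:**
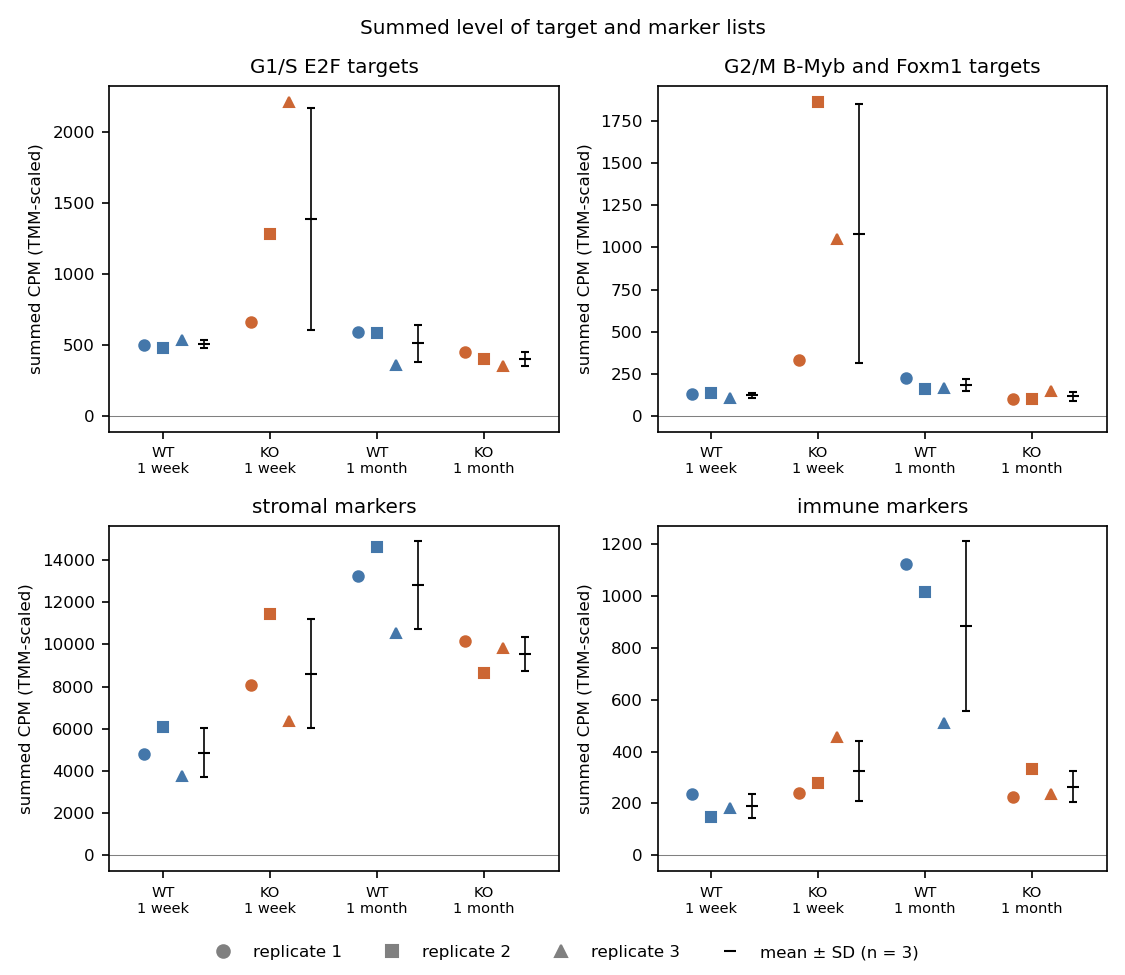
Summed CPM of 35 G1/S targets, 44 G2/M targets, 14 stromal markers and 9 immune markers in each library, with the mean ± SD of 3 libraries per group. The 3 KO libraries of 1 week have G2/M sums of 331 to 1866 CPM, while the other 9 libraries stay between 98.6 and 226 CPM.

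At 1 month the G1/S sum was 357 to 591 CPM in WT and 350 to 450 CPM in KO, and the groups overlapped. The median log2 fold change of the 25 tested targets was -0.15, beside -0.01 over all genes, with 10 higher, 15 lower and 0 past the threshold. In edgeR 5 had an unadjusted p under 0.05, against 21.5% of all genes. DESeq2 called 2 of the 35 lower, where it called 2.72% of all genes lower. The G2/M sum was 161 to 226 CPM in WT and 98.6 to 145 CPM in KO, with no overlap. Scaled by library size alone, the G2/M sums overlapped, at 144 to 181 CPM in WT and 92.8 to 166 CPM in KO, and 15 of 25 G1/S and 5 of 20 G2/M targets were higher. With TMM, of 20 tested, 18 were lower, with a median of -0.51, and 1 passed, where 2.22% of all genes did. It was Cdc25b, the gene of a phosphatase that activates CDK1. Cdc25b fell from 54.7 ± 3.05 CPM (SD, n = 3) in WT to 26.5 ± 7.46 CPM in KO (log2 fold change -1.06, SE 0.23, edgeR adjusted p = 0.0327). It did not pass with library size alone (adjusted p = 0.0628), without the batch covariate (0.442), or without WT replicate 1, WT replicate 2, KO replicate 1 or KO replicate 2 (0.0868 to 0.146). At 1 week Cdc25b stood at 33.2 ± 9.51 CPM in WT, and at 28.1 ± 19.4 CPM in KO.

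The remaining genes of the pathway included 6 E2F, DP and pocket genes (E2f4, E2f5, E2f6, Tfdp1, Rbl1 and Rbl2). At 1 week 4 were higher and 2 lower, with a median log2 fold change of 0.22. In edgeR and DESeq2 0 passed the threshold, with 1 at an unadjusted p under 0.05 in edgeR, against 15.5% of all genes. Without KO replicate 3, 3 of the 6 were higher. Rbl1, a pocket protein gene and itself an E2F target, had 15.6, 11.7 and 13.5 CPM in WT and 18.8, 32.5 and 44.3 CPM in KO (log2 fold change 1.25, SE 0.38, edgeR adjusted p = 0.196). At 1 month all 5 tested were higher, with a median of 0.35 and 0 past the threshold in edgeR or DESeq2. In edgeR 0 had an unadjusted p under 0.05, against 21.5% of all genes. Of the 7 MuvB and MYB genes, 6 were tested at 1 week (5 higher) and 4 at 1 month (2 higher), with 0 past the threshold in edgeR or DESeq2. In edgeR 1 had an unadjusted p under 0.05 at each time, against 15.5% and 21.5% of all genes. With library size alone 4 of the 6 were higher at 1 week, and without KO replicate 3 it was 2 of the 6. Mybl1, a relative of Mybl2, had 2.73, 2.75 and 3.55 CPM in WT and 6.15, 4.85 and 14.0 CPM in KO at 1 week (log2 fold change 1.47, SE 0.51, edgeR adjusted p = 0.243).

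Of 15 genes for cyclins, kinases and kinase inhibitors that act on the retinoblastoma protein, 7 were higher and 8 lower at 1 week, with a median of -0.07. In edgeR 0 passed the threshold, and 4 were higher at an unadjusted p under 0.05, where 10.5% of all genes were. DESeq2 called 2 higher, where it called 4.67% of all genes higher. Of the 15, 3 would not have met the filter on the WT libraries alone. Without KO replicate 3 the median was 0.22, with 8 higher, 7 lower and 1 past the threshold, where 2.45% of all genes were called. Without KO replicate 2 the median was -0.80, with 5 higher, 10 lower and 0 past the threshold. Ccne1, the gene of cyclin E1, was counted 5, 3 and 5 times in WT against 20, 78 and 18 times in KO (log2 fold change 3.32, SE 0.65, edgeR adjusted p = 0.109), with the highest value in replicate 2. With so few WT counts Ccne1 met the filter only through its KO libraries, where it was high, so its test carries no support of its own. Ccnd2, the gene of cyclin D2, had 444, 529 and 588 CPM in WT and 1322, 923 and 1428 CPM in KO (log2 fold change 1.26, SE 0.31, adjusted p = 0.139). At 1 month 9 of the 13 tested were higher and 0 passed edgeR. At an unadjusted p under 0.05, 3 were higher and 1 lower, where 11.1% and 10.3% of all genes were. Of the 13, 4 would not have met the filter on the WT libraries alone. DESeq2 called 1 higher, where it called 3.49% of all genes higher. Library size alone gave 10 higher and 2 past the threshold, both higher, where 3.76% of all genes were called higher. Cdkn2a, whose products restrain CDK4 and CDK6 and stabilise p53, was counted 2, 1 and 5 times in WT against 20, 11 and 17 times in KO at that time (log2 fold change 2.33, SE 0.64, edgeR adjusted p = 0.0714). Cdkn2a too met the filter there only through its KO libraries, so its test carries no support of its own. Its counts at 1 week were 22, 12 and 20 in WT and 11, 8 and 0 in KO.

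Markers of other cells moved with genotype beside these genes. At 1 week the 14 stromal markers summed to 3738 to 6068 CPM in WT and 6359 to 11429 CPM in KO, 13 of 14 were higher, and the 9 immune markers found summed to 147 to 237 CPM in WT and 241 to 458 CPM in KO. For 8 of the 14 stromal markers every KO library was above every WT library, where 13.2% of all genes were. DESeq2 called 5 of the 14 higher, where it called 4.67% of all genes higher. KO replicate 2, with the highest E2f1, E2f2, Foxm1 and G2/M sum, had the highest stromal sum, 11429 CPM. KO replicate 3, with the highest E2f8, had the lowest stromal sum of the KO libraries, 6359 CPM, and the highest immune sum. With library size alone the stromal sums overlapped (up to 6366 CPM in WT and from 5719 CPM in KO) and the immune sums did not. The urothelial markers summed to 13770 to 16697 CPM in WT and 12109 to 15310 CPM in KO. At 1 month the stromal sum was 10529 to 14640 CPM in WT and 8646 to 10157 CPM in KO, and the immune sum 509 to 1123 CPM in WT and 224 to 333 CPM in KO. Of the 14 stromal markers 7 were then higher and 7 lower, with 1 past the threshold, higher, and with library size alone their sums overlapped (from 10588 CPM in WT and up to 11254 CPM in KO). All 6 immune markers tested were lower, 3 past the threshold, where 2.22% of all genes were called. With library size alone the immune sums stayed apart (from 516 CPM in WT and up to 363 CPM in KO). The urothelial sum was 17535 to 33945 CPM in WT and 12910 to 19614 CPM in KO, with overlap. Of those 18 markers 13 were lower, with 1 past the threshold, lower. The stromal sums of 1 month were all above those of the WT libraries of 1 week. The G2/M sums of 1 month were all below those of the KO libraries of 1 week. Time and batch coincide, so these comparisons across times cannot tell what part stromal RNA had. The part of stromal and immune RNA, and of the sex-linked difference, in the differences of E2f1 to Foxm1 was not tested.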

How the data were processed

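Libraries were made from total RNA with the QuantSeq 3′ mRNA-Seq kit (forward version), which primes on poly(A) and reads the sense strand, per the labels' protocols. The authors deposited raw counts per gene, 1 table for each time, made with the strand-aware setting of HTSeq per the labels' protocols. Bowtie, TopHat, HTSeq, DESeq2 and the build mm10 are named, with no version or role, per the submitters' processing notes. The annotation is not given in the sources used here. Each column was matched to its sample by library name. For WT replicate 3 of 1 month the title carries another animal number than the library name, which was used.

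Groups came from the titles, and replicates were numbered in accession order, which pairs no animals. Counts were tested as deposited with edgeR 4.0.16 (R 4.3.3): TMM scaling, default filter on low counts, robust quasi-likelihood test, two-sided, adjusting p by Benjamini-Hochberg over every gene tested (threshold 0.05). Separate fits were made for 1 week and for 1 month, the latter with batch as a covariate, and the difference of the effects was fitted over all 12 libraries with batch. The SE of a log2 fold change is its size over the square root of F. CPM used 1 TMM scaling over the 12 libraries, and log2 CPM a prior count of 2. Members, gene lists, words and tests were chosen with earlier results of these data known, so the lists are described by counts and medians with no test. Named genes were the 9 members, up to 4 of a list with the smallest p at a time, and the 3 nearest profiles. Some genes that this rule names are not reported here. No replicate pair agreed within sampling noise. The steps were tested on simulated data. Intervals and the floor of 3 counts cover counting error only, since no molecular identifiers are stated. Alternatives were DESeq2 1.42.0, other scalings, filters, dispersions and batch settings, and leaving out each library.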

Additional observations from a re-analysis of the deposited data

How the results depend on the processing

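Of 346 member values refitted under the alternatives, 325 kept their direction and side of the threshold, 14 passed it only under the alternative, and 7 changed direction, all at 1 month. The members called at 1 week (0) became 4 under DESeq2, at 1 month (0) 1 in batch 2 alone, and in the difference of the effects (0) 3 under DESeq2. When 1 library was left out they ran from 0 to 1, 0 to 1 and 0 to 2. The genes called at 1 week (8) were 62 with no filter and 891 under DESeq2, and 0 to 320 with 1 library left out. At 1 month (269) they were 561 with library size alone, 1276 with no filter, 727 under DESeq2, 0 without the batch covariate and 1474 in batch 2 alone, and 45 to 1522 with 1 library left out. In the difference of the effects (0) they were 137 with no filter and 856 under DESeq2, and 0 to 440 with 1 library left out. The cause of these shifts was not tested. At 1 month, with library size alone, E2f3 was 0.17 and Tfdp2 0.034. With 1 library left out, the 1-month values ran from -0.34 to 0.25 for E2f3, from -1.41 to 0.041 for Mybl2, from -0.026 to 0.49 for Rb1 and from -1.36 to 0.053 for E2f2. No paired analysis was possible because the labels give no replicate numbers that link animals of different groups. Leaving out KO replicate 3 of 1 week from the count of separated members was chosen after seeing the data. E2f7 and E2f8 rest on few counts outside the KO libraries of 1 week, which limits what can be told apart.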

Other observations

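Between the times, the WT libraries themselves differed in these genes. E2f1 had 1.38 to 2.23 CPM in WT at 1 week and 4.92 to 9.05 CPM at 1 month, and E2f2 1.83 to 2.13 CPM and 2.98 to 11.6 CPM. E2f3 (17.4 to 22.0 CPM against 4.62 to 10.5 CPM), Rb1 (18.3 to 29.1 CPM against 5.05 to 14.2 CPM) and Tfdp2 (68.5 to 77.7 CPM against 43.4 to 59.0 CPM) lay the other way. For 6 of the 9 genes the WT libraries of the times did not overlap, 3 higher at 1 week and 3 lower, where 21.6% of the 13122 genes tested were higher and 22.2% lower. Foxm1, the sixth, overlapped when CPM were scaled by library size alone. Time and batch cannot be told apart, and no test was made. The KO mean of E2f1 at 1 month, 3.52 CPM, lay between the WT means of 1 week (1.88 CPM) and 1 month (6.47 CPM). For E2f2 the KO mean of 4.67 CPM also lay between WT means of 2.00 and 6.91 CPM.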
